A study of Homo sapiens with 8 samples.

Results

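The regions described here are all stretches of human chromosome 19 that carried an ATF4 peak in at least 1 of 8 deposited peak lists. Peaks of the 8 lists were joined where they shared at least 1 bp, which gave 3426 regions from 11409 peaks on this chromosome, out of 132657 regions in the genome. The lists come from chromatin immunoprecipitation and sequencing (ChIP-seq) with 5 ug of an antibody against ATF4 in Nalm6 and SUPB15, established cell lines of acute lymphoblastic leukaemia grown in the same serum-containing medium. In each line 2 libraries came from untreated cells and 2 from cells given L-asparaginase at 1 IU/ml for 2 h. The question is which sites ATF4 occupied before the drug and after it. The regions were selected on presence in a peak list, so the presence values are a description, and tests were run only on libraries or on summit heights.

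ATF4 is a basic leucine zipper factor whose messenger RNA is translated more efficiently when amino acids are scarce, because uncharged transfer RNA activates the kinase GCN2. It pairs with other leucine zipper proteins, such as those of the C/EBP family, and switches on genes for amino acid synthesis, uptake and transfer RNA charging. L-asparaginase hydrolyses asparagine, on which many lymphoblasts depend, and so calls on this pathway. Chromosome 19 is known for its high gene density and for large clusters of zinc finger genes, many of which lie in repressive chromatin. In the RefSeq table of GRCh38 it held 1451 of 19126 autosomal protein-coding genes, 7.59%, and 250 of them have symbols that start with ZNF. Its span between the first and the last region made up 2.11% of the autosomal span of the lists. All positions below are hg19 positions, and no gene names are attached to regions, since an annotation or sequence of hg19 was not used here.

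Depth and background set what a list can hold. For every peak the deposited fold enrichment and p-value were solved for the number of fragments piled up at the summit and for the local background, as the methods describe. The genome background, the lowest background in a list and a measure of relative depth, was 2.21 to 2.97 fragments in the Nalm6 libraries and 3.90 to 4.19 in those of SUPB15. On chromosome 19 the lists of untreated cells began at summits of 3.70 and 3.94 times the genome background in Nalm6 and of 3.68 and 4.10 times in SUPB15. The asparaginase lists began higher in Nalm6, at 4.53 and 4.29 times, and lower in SUPB15, at 3.10 and 3.31 times. The part of these lower ends in the gained counts was not tested. A missing peak therefore means a summit too low to be listed, not a measured level of 0. The lowest −log10 q of a chromosome 19 peak was 1.70 to 1.96 across the lists. The SUPB15 labels do not tell whether replicates are separate cultures, so p-values there measure the spread of these libraries, which may be technical.

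Within each treatment the Nalm6 lists held more chromosome 19 peaks than the SUPB15 lists, by a small margin for asparaginase replicate 1. In untreated Nalm6 the 2 lists held 1830 and 1944 chromosome 19 peaks, and with asparaginase they held 1986 and 2173. In untreated SUPB15 they held 309 and 238, and with asparaginase 1982 and 947. All asparaginase lists of a line thus held more chromosome 19 peaks than its untreated lists, by a ratio of geometric means of 1.1 in Nalm6 and 5.05 in SUPB15. Over both lines the ratio was 2.36 (p = 0.0556, two-sided, exact permutation within lines with n = 2 per group), and no lower p is possible with these libraries. Within a line p cannot go below 0.333, which was the value in each. With equally long lists of strongest peaks within a line, the log2 change in number was -0.18 in Nalm6, 0.27 in SUPB15 and 0.05 over both lines, in place of 0.14, 2.34 and 1.24.

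Relative to the whole list, chromosome 19 moved the other way. It held 5.255% and 5.282% of the peaks of untreated Nalm6, and 4.579% and 4.436% with asparaginase. In SUPB15 it held 3.227% and 2.483% of the untreated peaks and 2.245% and 2.298% with asparaginase. In both lines the 2 asparaginase values lay under both untreated values. The mean share was 5.27% ± 0.0195 (SD, n = 2) against 4.51% ± 0.101 (SD, n = 2) in Nalm6, and 2.86% ± 0.526 (SD, n = 2) against 2.27% ± 0.0376 (SD, n = 2) in SUPB15. The ratio of shares with and without asparaginase was 0.855 in Nalm6 and 0.802 in SUPB15 (exact two-sided permutation test, p = 0.333 in each line with n = 2 per group). Over both lines it was 0.828 (p = 0.0556 by the exact two-sided permutation test, again the smallest possible). The log2 change of SUPB15 minus that of Nalm6 was -0.09 (p = 0.889 by an exact permutation test).

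List length matters for this share. When each line's lists were shortened to equal numbers of strongest peaks, the asparaginase share was still lower in Nalm6, by -0.18 on the log2 scale, while in SUPB15 it was higher by 0.27, and over both lines the change was 0.05. Among the strongest 5000 peaks of each list, a number chosen after the lists had been seen, 4.9% and 5.46% lay on chromosome 19 in untreated Nalm6 and 4.14% and 4.04% with asparaginase. The same counts in SUPB15 gave 3.56% and 2.7% without treatment and 4.14% and 3.54% with asparaginase, so there the groups overlapped. The share was higher in Nalm6 than in SUPB15 in every library, by a factor of 1.92 within treatments (p = 0.0556, two-sided by exact permutation, which is the lowest value that can occur). Without chromosome 8 from 60 Mb and chromosome 1 from 180 Mb the difference was 0.73 on the log2 scale, in place of 0.943. Among the strongest 5000 peaks this difference was 0.42 on the log2 scale (p = 0.167 by the same exact permutation test), and the lines overlapped.

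**Figure D1:**
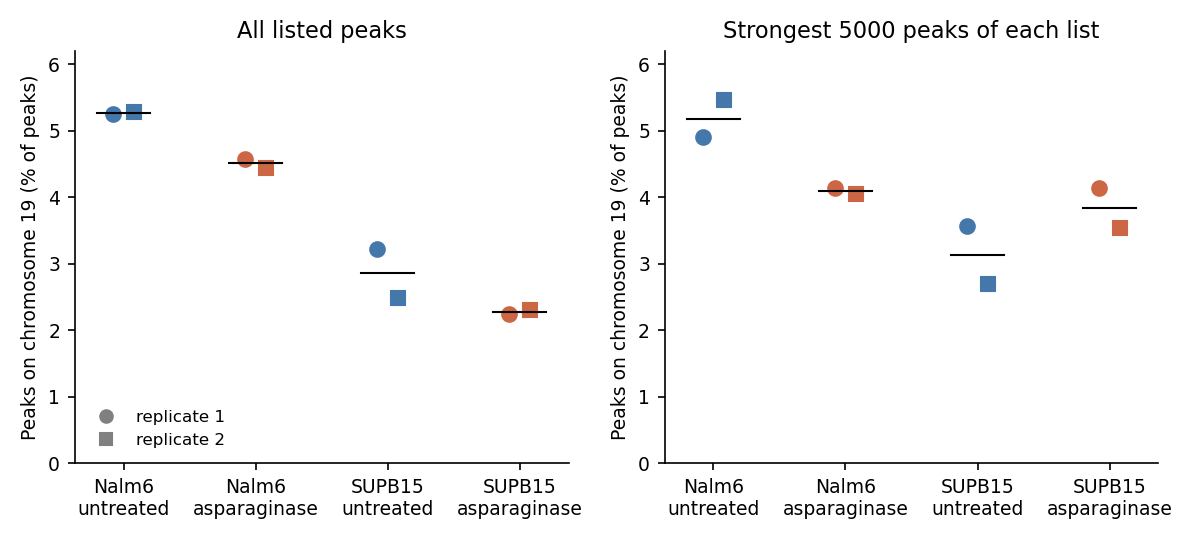
Share of peaks on chromosome 19 in each of the 8 libraries, over the whole list (left) and over the strongest 5000 peaks of each list (right); points are libraries, circles replicate 1 and squares replicate 2, and bars are means of 2. On the left both asparaginase libraries of a line lie under its untreated libraries; on the right this holds for Nalm6, and the SUPB15 groups overlap.

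Per megabase, the Nalm6 lists were denser on chromosome 19 than on any other autosome. They held 31.1, 33, 33.7 and 36.9 peaks per Mb there, in the order untreated replicates 1 and 2 and asparaginase replicates 1 and 2, against medians of 12.2 to 16.5 on the other autosomes. Chromosome 22 came closest, with 27.3, 28.6, 30.2 and 34.7 in the same order. In SUPB15 the densities were 5.25 and 4.04 without treatment and 33.7 and 16.1 with asparaginase, and chromosome 19 ranked between 2 and 4 of 22. With asparaginase, chromosomes 8 (78.2 and 42 peaks per Mb) and 1 (42.3 and 20) were denser in SUPB15. These densities and ranks carry no test.

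Most chromosome 19 regions of Nalm6 were occupied with and without the drug. Of 2440 regions with a Nalm6 peak, 1371 had a peak in all 4 libraries, called constant, which is 56.2% (95% Wilson interval 54.2 to 58.1, counting error over regions only). Over the genome 44.3% of the Nalm6 regions were constant. Both asparaginase lists but neither untreated list held a peak at 169 regions, called gained, or 6.93% (5.99 to 8), where the genome as a whole had 12.3%. The opposite pattern, both untreated lists only, was found at 38 regions, 1.56% (1.14 to 2.13), beside 1.21% over the genome. Among the 22 autosomes chromosome 19 had the highest constant share and the lowest gained share of Nalm6. The other autosomes ranged from 38% to 51.2% constant and from 7.23% to 15.5% gained. Nearest to chromosome 19 were chromosomes 22 (7.23% gained, 50.3% constant), 17 (8.57% and 51.2%) and 16 (9.98% and 51.2%).

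Many SUPB15 regions were in a single list of that line. Of 2088 chromosome 19 regions with a SUPB15 peak, 1077 were in the list of asparaginase replicate 1 alone, 51.6% compared with 57.4% on the other autosomes. A further 178 were in that of asparaginase replicate 2 alone, 8.52% compared with 12.7%. Gained regions numbered 460, 22% (20.3 to 23.9), with 16.9% over the genome, and constant regions 148, 7.09% (6.06 to 8.27), with 4.8% over the genome. A single region was listed in both untreated libraries only, 0.0479% of those of the line against 0.0219% over the genome. Chromosome 19 had the highest gained share of the autosomes in SUPB15. Set against regions in both asparaginase lists, though, the gained share was 62.9%, close to the median of 63% on the other autosomes. The corresponding value in Nalm6 was 10.2% against a median of 20% and a lowest value of 11.2% on the other autosomes. Without asparaginase replicate 2 of SUPB15 the gained regions became 1538, and leaving out single Nalm6 libraries gave 212 to 387 gained regions in that line.

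**Figure D2:**
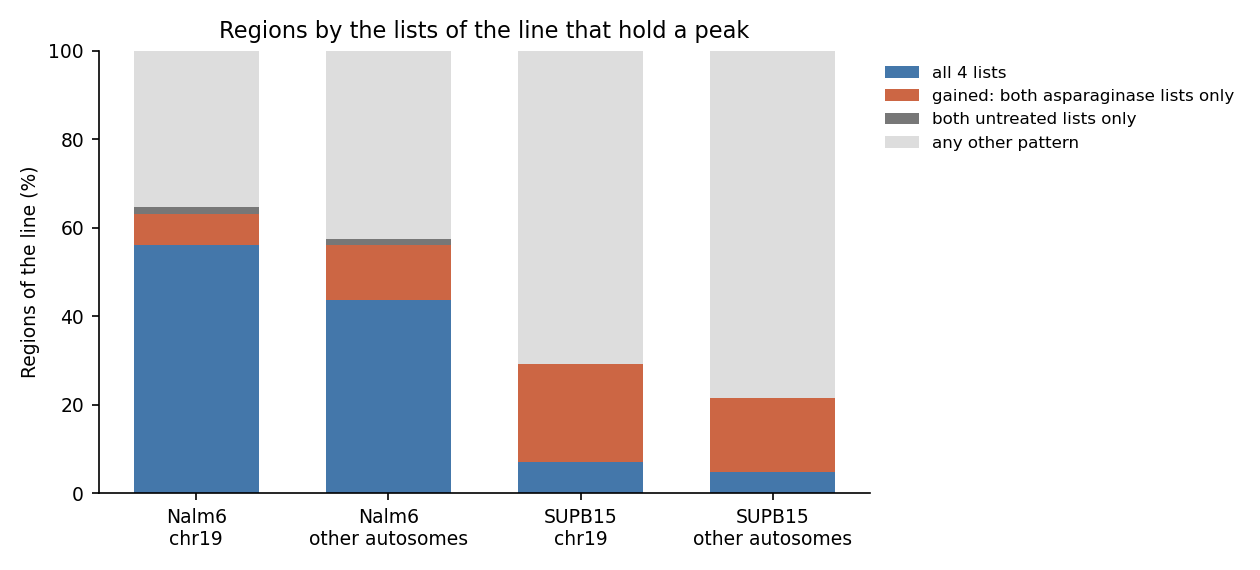
Regions of each line by the pattern of lists that hold a peak, on chromosome 19 and on the other autosomes, as percent of the line's regions. On chromosome 19 constant regions make up 56.2% in Nalm6 and 7.09% in SUPB15, and gained regions 6.93% and 22%.

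The gained share of Nalm6 was lower on chromosome 19 in each of 4 ranges of peak strength. Peaks of asparaginase replicate 2 were split by their −log10 q after the data had been seen. Of those with −log10 q from 10 to 20, 8.29% of 615 lay in gained regions on chromosome 19, compared with 17.4% of 11111 on the other autosomes. From 5 to 10 the shares were 10.9% and 20.5%, below 5 they were 6.57% and 13.4%, and from 20 upwards 4.7% and 6.22%. In SUPB15 the order was the reverse, with 66.4% of 116 chromosome 19 peaks against 56% of 3612 others between 10 and 20. These shares are descriptions of 1 library in each line, and they count peaks that asparaginase replicate 1 did not list. Among regions in both asparaginase lists, the gained share of SUPB15 was 62.9% on chromosome 19 and 64.4% on the other autosomes. For Nalm6 the same shares were 10.2% and 19.7%.

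In the full lists, peaks on chromosome 19 stood out somewhat more from their surroundings in Nalm6. The ratio of their median fold to that on the other autosomes averaged 1.05 over the 4 Nalm6 libraries. Among peaks with −log10 q of at least 10 this ratio was 1. The median fold enrichment, the summit over the local background as the authors' peak caller gave it, was 4.75 and 4.89 in the untreated lists against 4.44 and 4.51 on the other autosomes. With asparaginase it was 5.19 and 5.14 against 5.06 and 5.00. In SUPB15 it was 3.75 and 3.64 on chromosome 19 without treatment and 3.25 and 3.53 with asparaginase. The other autosomes there had 3.74 and 3.71, then 3.47 and 3.65. The local background in SUPB15 was higher on chromosome 19. At chromosome 19 peaks its median was 1.83 to 2.01 times the genome background in the SUPB15 lists, and 1.17 to 1.51 times at the peaks of other autosomes. In Nalm6 the corresponding ranges were 1.68 to 2.06 and 1.74 to 1.90. Median summits over the genome background in the SUPB15 lists were 6.875 to 7.105 on chromosome 19 and 5.01 to 6.37 on the other autosomes. The part of the local background in the presence of peaks was not tested.

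Regions found in more lists were wider and stronger. Of the 3426 regions, 1223 were in 1 list, with a median width of 238 bp and a median highest fold enrichment of 3.29. At the other end 125 regions were in all 8 lists, with 1054 bp and 10.3. Merging more peaks widens a region and strong sites are listed more often, so both trends are partly built in. Both lines had a peak at 1102 regions, 32.2% of those on chromosome 19 compared with 17.9% on the other autosomes. A peak of Nalm6 only was found at 1338 regions, 39.05% compared with 23.71% on the other autosomes. A peak of SUPB15 only was found at 986, 28.78% compared with 58.35%. The other autosomes include chromosome 8, where the SUPB15 lists were densest.

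The smallest overlap that joined peaks was 2 bp, and 13 joins rested on 10 bp or less. The smallest distance between regions kept apart was 0 bp, which means that they touched, and 10 neighbours lay within 10 bp.

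The strongest site shared by all 8 libraries lay at chr19:47747144-47747922. Its fold enrichments in Nalm6 were 18.7 and 19 without treatment, then 16.8 and 15.4 with the drug. The SUPB15 libraries gave 14.8 and 13.4 when untreated and 13.9 and 14.5 when treated. Summits there reached 106 and 125 times the genome background in untreated Nalm6 and 173 and 169 times with the drug. The change, relative to the median of all constant regions, was 0.21 ± 0.16 (SE) on the log2 scale and did not pass the test (limma, adjusted p = 0.34). Next came chr19:33863957-33865371, whose lowest fold enrichment was 12.7, chr19:57790828-57792122, chr19:1383235-1384339 and chr19:59030496-59031677, where it was 9.34. At chr19:33863957-33865371 the Nalm6 summits were 78.4 and 89.6 times the genome background without and 157 and 155 times with asparaginase. That region rose in Nalm6, by 0.53 ± 0.161 (SE, limma, adjusted p = 0.00542), while its local background was 5.36 and 6.29 times the genome background without and 11 and 11.8 times with the drug. Its fold enrichment there was 13.8 and 13.5, then 13.8 and 12.7. In SUPB15 the change was 0.17 ± 0.17 (SE, limma, adjusted p = 0.431), and the difference between the lines did not pass the test (-0.25, adjusted p = 0.744). The other 3 did not pass the threshold in either line.

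At constant regions the summit height itself can be compared between treatments. After adding 1 to the pileup, heights relative to the genome background were put on a log2 scale and centred on the median change of all constant regions of the line, which was 0.37 in Nalm6 and 0.61 in SUPB15. The limma test ran over the whole genome with Benjamini-Hochberg adjustment at 0.05. Of the 1371 chromosome 19 regions of Nalm6, 208 rose, 15.2%, and 138 fell, 10.1%. Over all 25184 regions tested, 22.7% rose and 8.66% fell. The median change on chromosome 19 was -0.11, compared with 0 for all regions by construction. Without centring 395 of the chromosome 19 regions were higher and 6 lower, and with the deposited fold enrichment in place of the pileup 119 were higher and 69 lower. Over all 25184 regions these settings gave 9762 higher and 100 lower, and 3827 higher and 1030 lower. Without Nalm6 asparaginase replicate 1 the median change on chromosome 19 was -0.0957. Direction here is thus relative to the other constant regions, most of which had higher summits with the drug before centring.

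**Figure D3:**
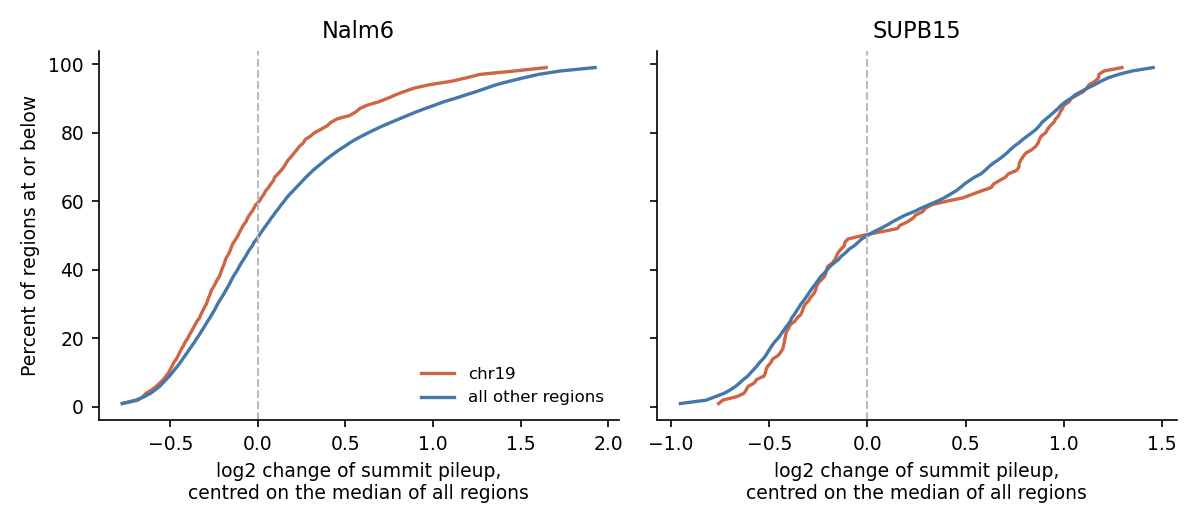
Cumulative distribution of the log2 change of summit pileup with asparaginase at constant regions, for chromosome 19 and for all other regions of each line, centred on the median of all regions. In Nalm6 the chromosome 19 curve lies to the left, with a median of -0.11; in SUPB15 both curves cross 0 near the same height, with a chromosome 19 median of -0.03.

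The constant region that rose most in Nalm6 was chr19:4953614-4954323. Its summit stood at 4.71 and 5.02 times the genome background without treatment and at 32.2 and 36.5 times with asparaginase. The relative change was 2.37 ± 0.227 (SE) on the log2 scale (limma, adjusted p = 1.51e-20). In SUPB15 the same region was gained, with no listed peak in untreated cells and 30.5 and 18.8 times the genome background with asparaginase.

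The next regions by size of the rise showed the same separation of the groups. At chr19:47813910-47814610 the summit was 4.71 and 6.81 times the genome background before and 37.6 and 36.9 times after treatment. The region at chr19:18475553-18476428 had 6.73 and 6.45 without and 38.9 and 42.9 with asparaginase. The one at chr19:51626394-51627348 had 10.4 in both untreated libraries and 55.3 and 70.4 with the drug. In all of these the groups were far apart, and the relative log2 changes were 2.28, 2.21 and 2.18. Both SUPB15 asparaginase lists also held a peak at all 3, and untreated SUPB15 at only chr19:47813910-47814610, in replicate 1.

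The fifth, chr19:15411349-15411973, reached 94.2 and 90.1 times the genome background with asparaginase, from 13.8 and 21.2 in untreated Nalm6. Its local background rose too, from 3.01 and 4.14 to 13.5 and 15.6 times the genome background. The change of the summit was 2.04 ± 0.179 (SE, limma, adjusted p = 1.07e-23), and the change of the deposited fold enrichment 0.32 (adjusted p = 0.219). At this region the local background was thus higher with the drug, like the summit.

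Regions that fell in Nalm6 did so by less. The largest fall was at chr19:16939892-16940827, from 26.6 and 37.3 to 19.9 and 21.5 times the genome background, a relative change of -0.96 ± 0.192 (SE, limma, adjusted p = 7.68e-06). The next were chr19:17403065-17403959, chr19:34894680-34895908, chr19:41107081-41107610 and chr19:44123084-44124255, with relative changes of -0.926, -0.892, -0.855 and -0.854. At each of the 5 both asparaginase summits lay under both untreated ones, also before centring. In SUPB15 none of these 5 had a peak in all 4 libraries.

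**Figure D4:**
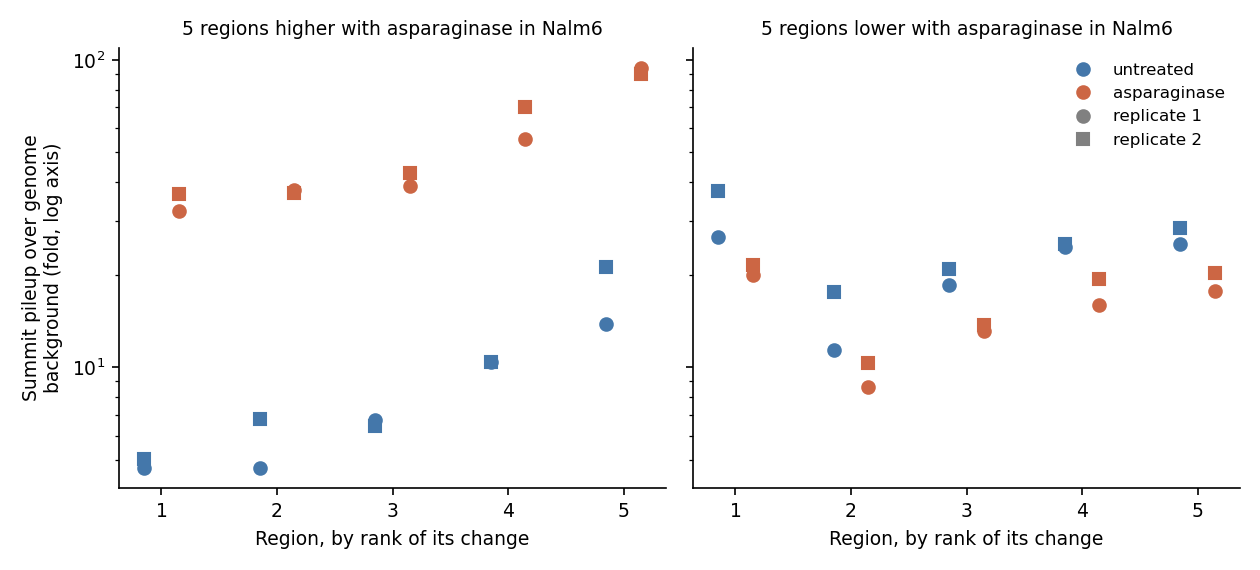
Summit pileup over the genome background (log axis) in the 4 Nalm6 libraries at the 5 constant chromosome 19 regions that rose most and the 5 that fell most with asparaginase, ordered by the size of the change. Asparaginase libraries reach 32.2 to 94.2 on the left, over untreated values of 4.71 to 21.2, while on the right they reach 8.6 to 21.5, under untreated values of 11.4 to 37.3.

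In SUPB15 148 constant regions could be tested. Of these 39 rose, 26.4%, and 3 fell, 2.03%, with 20.9% and 5.61% over all 4809 regions. The strongest rise was at chr19:19271101-19272060, from 22.3 and 15.6 to 79 and 71 times the genome background, a relative change of 1.38 ± 0.256 (SE, limma, adjusted p = 4.58e-05). The same region rose in Nalm6, from 30.3 and 40.5 to 137 and 145 times, by 1.63 ± 0.167 (SE, limma, adjusted p = 2.56e-18). Its local background in Nalm6 rose too, from 1.41 and 2.02 to 6.88 and 7.58 times the genome background. Fold enrichments at this region in Nalm6 were 17.5 and 17.2 without and 18.7 and 18.2 with the drug. In SUPB15 they were 9.77 and 6.78, then 14.5 and 16.6, with local backgrounds of 2.06 and 2.09, then 5.22 and 4.03. At chr19:20162835-20163992 no Nalm6 library listed a peak, and SUPB15 went from 13.2 and 10.8 to 58.5 and 36.9 times the genome background. The regions chr19:54296234-54296767, chr19:48226671-48227244 and chr19:11090490-11091266 rose in both lines, by 1.26, 1.2 and 1.18 in SUPB15 and by 1.44, 1.37 and 0.96 in Nalm6.

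These SUPB15 calls depend on single libraries. Without untreated replicate 2 no chromosome 19 region passed limma's test, with 11 at an unadjusted p under 0.05, and none of the 4809 over the genome did. The 5 rises named above were then 1.05 to 1.25 in size. Without untreated replicate 1 a single chromosome 19 region passed, with 6 higher and 4 lower over the genome. Without asparaginase replicate 1 the same 5 rises were 0.97 to 1.42. Restricting the test to regions with −log10 q of at least 10 in every list left 2 higher and 27 lower, since the median change of those regions is then the reference, and the deposited fold enrichment gave 20 higher and 22 lower. Over the genome these settings gave 56 higher and 515 lower of 1640, and 968 higher and 566 lower of 4809.

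The 3 regions that fell in SUPB15 did not pass the test without centring. Those at chr19:27731850-27732943 and chr19:27738311-27739074 are the first and the third region after the widest interval without a region, which ran from 24570352 to 27731849. The Nalm6 summits of the first stood at 49.1 and 49.8 times the genome background without and 58.9 and 51.5 times with the drug. Those of SUPB15 stood at 43.1 and 47.7, then 35.6 and 45.8 times. Local backgrounds there were 3.53 to 5.84 times the genome background. Without centring the changes in SUPB15 were -0.17 (adjusted p = 0.604) and -0.28 (adjusted p = 0.568). The other, chr19:37568710-37569676, changed by -0.01 without centring (adjusted p = 0.981).

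Across the 125 chromosome 19 regions listed in all 8 libraries the changes of the lines ran together, with Pearson's r of 0.84 and Spearman's rho of 0.79 over regions, which are not independent replicates. Of these regions 48 rose in Nalm6, 38.4%, and 32 in SUPB15, 25.6%, and over all 3812 regions in all 8 lists 42.3% and 19.4% did. Both lines rose at 28 of the 125, 22.4%, beside 18.3% of the 3812. These 28 are 58.3% of the Nalm6 and 87.5% of the SUPB15 count, where over all regions the shares were 43.3% and 94.3%. A direct test of the difference between the lines, SUPB15 change minus Nalm6 change, called 2 of the 125 regions, both lower, 1.6%. None of the 125 was called higher, and 7 had an unadjusted p under 0.05. Over all 3812 regions limma called 4.93% lower and 0.498% higher. One was chr19:15411349-15411973, where SUPB15 went from 22.3 and 20.8 to 48.7 and 43.5 times the genome background, beside the larger rise in Nalm6 given above. The difference was -1.45 ± 0.374 (SE, limma, adjusted p = 0.00439). The second was chr19:42513866-42515239, with 36.3 and 55.2 against 115 and 130 times in Nalm6, and 34.5 and 22.6 against 34.8 and 41.5 in SUPB15. Its difference was -1.13 ± 0.321 (SE, limma, adjusted p = 0.0119). Neither passed with the deposited fold enrichment, and both calls were lost without Nalm6 untreated replicate 1 and without either asparaginase library of Nalm6. The second also did not pass without SUPB15 untreated replicate 1 or asparaginase replicate 1.

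Gained regions of Nalm6 on chromosome 19 had a median fold enrichment of 4.63, taking the lower of both asparaginase lists, and a median width of 427 bp. For constant regions these were 5.51 and 899 bp. The strongest gained region was chr19:19341102-19341857, with fold enrichments of 11.6 and 14.2 and summits 22.6 and 22.3 times the genome background. SUPB15 gained a peak at the same place, with fold enrichments of 5.09 and 3.97. The regions that followed were chr19:41402848-41403496 (13.4 and 11.3), chr19:31883285-31883904 (10.2 and 10.9) and chr19:40247518-40248013 (9.47 and 11.8), all of them gained in SUPB15 as well. The last of the 5, chr19:15391932-15392972 (9.66 and 9.24), was constant in SUPB15, with 5.58 and 4.3 before and 7.85 and 8.88 after treatment. All 5 stayed in the gained class with −log10 q of at least 10 and with equally long lists.

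The gained regions of SUPB15 were weaker, with a median lower fold enrichment of 3.37 against 6.21 at constant regions. The strongest, chr19:49258403-49259309, had 9.14 and 9.91 in the asparaginase lists and summits of 33.6 and 27.8 times the genome background. In Nalm6 this region had 16.6 and 13.9 with asparaginase and a peak of 6.07 in untreated replicate 2 alone. At chr19:5773385-5774179 SUPB15 gained 10.5 and 8.23, while Nalm6 was occupied throughout, with 15.3 and 13.8 without and 20 and 19.1 with asparaginase. That region rose in Nalm6 by 1.15 ± 0.173 (SE, limma, adjusted p = 1.42e-09). At chr19:18475553-18476428 and chr19:5330316-5331479 the pattern was similar, with SUPB15 values of 10.3 and 7.9, and of 8.71 and 7.14. Of the 460 regions gained in SUPB15, 218 were constant in Nalm6, 47.4%, and 129 had no Nalm6 peak at all, 28%. On the other autosomes these shares were 21.9% and 57.7%.

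Both lines gained a peak at 57 chromosome 19 regions, 33.7% of those gained in Nalm6 and 12.4% of those gained in SUPB15. On the other autosomes these shares were 23.9% and 9.76%. They made up 5.17% (95% Wilson interval 4.01 to 6.64) of the 1102 regions with a peak of each line, beside 6.85% over the genome. The strongest by the lowest of 4 values was chr19:40590757-40591324, where the Nalm6 asparaginase lists gave fold enrichments of 8.68 and 8.98, and those of SUPB15 gave 10.6 and 7.61. At chr19:9481217-9481872, the next, these were 8.33 and 9.8 for Nalm6, then 7.71 and 6.9 for SUPB15. They were followed by chr19:13153231-13153964 (lowest value 5.58), chr19:35248085-35248839 (5.29) and chr19:21807891-21808394 (5.22). With −log10 q of at least 10 for every peak 30 regions were gained in both lines, and with equally long lists 25.

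Regions held by untreated cells alone were few and weak in the full lists. In Nalm6 the strongest were chr19:2015541-2015828, with fold enrichments of 5.23 and 4.42, chr19:33528349-33528711 with 4.28 and 4.49, and chr19:42800110-42800528 with 4.28 and 4.08. Their summits lay at 5.38 to 7.53 times the genome background. None of these had a SUPB15 peak, and 35 of the 38 such regions had none, 92.1%, beside 88% of such regions on the other autosomes. The single one of SUPB15 was chr19:48453131-48453451, with 4.33 and 5.31, where Nalm6 had no peak. These numbers depend on list length. With equally long lists of strongest peaks within a line, Nalm6 had 149 untreated-only and 115 gained regions. SUPB15 then had 35 untreated-only and 108 gained regions.

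Along the chromosome the regions were spread unevenly. In 60 bins of 1 Mb the median number of regions was 59.5, and 2 bins, within the widest interval, held none. The bins with most regions were those from 2 to 3 Mb (111 regions), from 18 to 19 Mb (98) and from 47 to 48 Mb (94). Those with fewest, among bins with any, were from 27 to 28 Mb (6 regions), from 59 to 60 Mb (12) and from 31 to 32 Mb (14). The 10 fullest bins held 26.9% of all regions. Before the widest interval there were 69.5 regions per Mb and after it 55.3. Gained shares were 6.70% (5.45 to 8.21) before and 7.17% (5.83 to 8.79) after it in Nalm6, and 24.1% (21.5 to 26.8) and 20.2% (18 to 22.7) in SUPB15, with overlapping 95% Wilson intervals.

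No bin held more than 10 gained in Nalm6 or 16 gained in SUPB15. Of 58 bins with a region, 9 had none gained in Nalm6 and 2 none gained in SUPB15. Among bins with at least 20 regions, the highest gained shares of Nalm6 were 24% (6 of 25) from 33 to 34 Mb, 20% (7 of 35) from 15 to 16 Mb and 15.4% from 19 to 20 Mb (8 of 52) and from 21 to 22 Mb (2 of 13). The lowest were 0, shared by several bins, among them that from 5 to 6 Mb with 41 Nalm6 regions. In SUPB15 the highest were 43.8% (14 of 32) from 16 to 17 Mb, 37.2% (16 of 43) from 19 to 20 Mb and 31.7% (13 of 41) from 13 to 14 Mb and, equally, from 40 to 41 Mb. The lowest were 8.93% (5 of 56) from 37 to 38 Mb, 11.9% (5 of 42) from 23 to 24 Mb and 12.5% (7 of 56) from 12 to 13 Mb. From 30 to 31 Mb the share was also 12.5% (2 of 16). Across the 58 bins, the numbers gained in the lines had a Pearson's r of 0.54 and a Spearman's rho of 0.57. The percent gained in bins with at least 20 regions, which takes out the number of regions, had 0.08 and 0.10 over 52 bins. Constant regions of Nalm6 and gained regions of SUPB15 had 0.72 and 0.74 over 58 bins.

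In 6 bins SUPB15 had at least 2 times as many regions as Nalm6, picked after the values were seen among bins with at least 20 regions. The reverse, Nalm6 with at least 2 times as many as SUPB15, held in 3 bins, from 1 to 2 Mb (86 and 39 regions), 5 to 6 Mb (41 and 19) and 18 to 19 Mb (93 and 41). The 6 bins led by SUPB15 were those from 20 to 21, 21 to 22, 23 to 24, 37 to 38, 52 to 53 and 53 to 54 Mb, and together they held 288 SUPB15 and 72 Nalm6 regions. In the remaining 52 bins with regions there were 1800 and 2368. From 20 to 21 Mb alone there were 46 SUPB15 and 6 Nalm6 regions. Most of the SUPB15 regions of the 6 bins, 61.5%, were in the list of asparaginase replicate 1 alone, compared with 50% elsewhere on the chromosome. The lists of the SUPB15 libraries held 26 and 24 peaks there without treatment and 260 and 103 with asparaginase, and those of Nalm6 61 to 67. Local backgrounds in these bins were lower in every library. They were 1.05 to 1.24 times the genome background in Nalm6 and 1.24 to 1.38 times in SUPB15, against 1.71 to 2.09 and 1.88 to 2.16 in the other bins. The few Nalm6 regions there were mostly constant, 69.4% of 72.

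**Figure D5:**
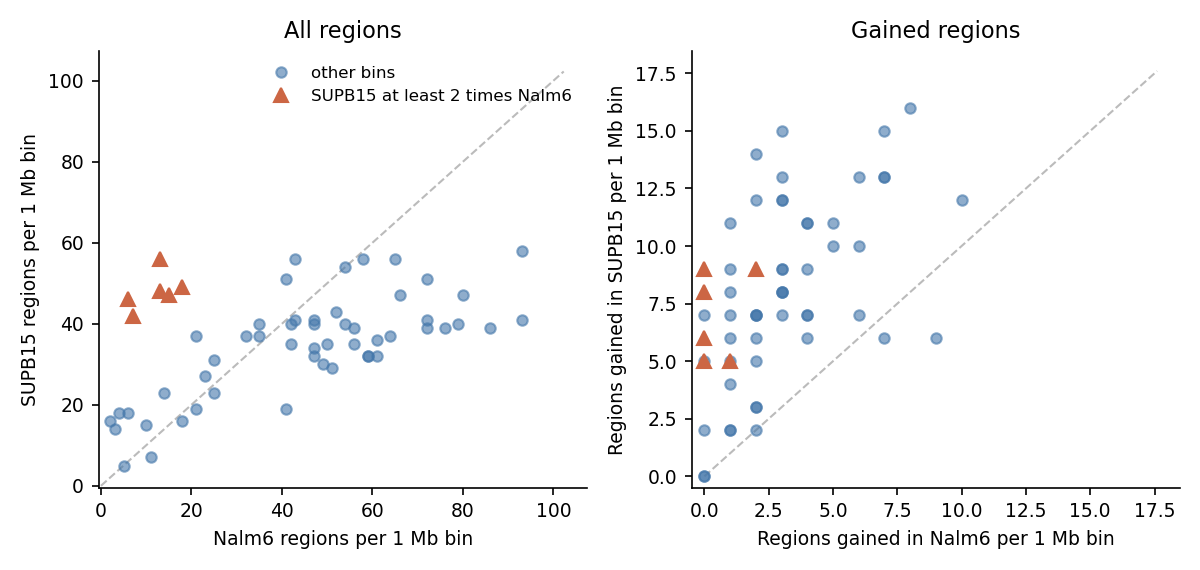
Number of Nalm6 and SUPB15 regions (left) and of regions gained in each line (right) per 1 Mb bin of chromosome 19; each point is 1 of 58 bins, and the dashed line marks equal numbers. Triangles are the 6 bins of at least 20 regions where SUPB15 had at least 2 times as many regions as Nalm6; they lie far above the line on the left and hold few regions gained in Nalm6 on the right.

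In Nalm6 the number of regions in a bin ran with the median local background of its peaks, with Pearson's r of 0.71 to 0.75 in the 4 libraries over 52 bins. In SUPB15 it did not, with r of -0.10 to 0.11 over 50 to 52 bins. The bins of a library share its depth, and no test was made of these relations.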

How the data were processed

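Of each library 1 peak list was used, grouped by line and treatment from its title. Reads were aligned with BWA to hg19, peaks called with MACS2, and DiffBind used, per the submitters' processing notes, which give no versions here. The fold enrichment of each summit, a ratio to local background, and the −log10 p and −log10 q values are as deposited by the authors. A control library is not given in the sources used here.

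Fold and p were solved for a whole-number summit pileup and a local background, which succeeded for 100% of peaks (tolerance 0.001 in −log10 p). Peaks of the 8 lists sharing 1 bp were merged. Library values were compared by exact permutation tests (Python 3.11.15, scipy 1.17.1) and summit pileups by limma 3.58.1 with trend, on regions listed in all libraries compared. Scripts were tested on simulated data. Replicate numbers were not used to pair the libraries in the main tests. The correlation of replicate differences across regions was 0.0336 in Nalm6 and 0.0864 in SUPB15. It leaves out any shift common to all regions, so it does not settle whether the libraries were paired.

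Regions named are those with the highest lowest fold enrichment (5 in all 8 lists, 5 gained per line and in both, 3 untreated-only per line) or the largest change past the threshold (5 per line and direction, 3 between lines), and bins at either end of the counts and gained shares. Members, rules and lists were chosen with earlier results of these data known. The intended gene lists and the count of ATF4 elements were not computed, since an hg19 annotation or genome was not used here.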

Additional observations from a re-analysis of the deposited data

Results flagged for a closer look

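At chr19:15411349-15411973 the rise of the summit pileup with asparaginase was smaller in SUPB15 than in Nalm6, by -1.45 on the log2 scale, in a limma test of the difference itself. At chr19:42513866-42515239 the difference was -1.13 by the same test. Of 125 chromosome 19 regions listed in all 8 libraries, these 2 passed it. Leaving out any 1 SUPB15 library kept the first past the threshold, while leaving out Nalm6 untreated replicate 1, asparaginase replicate 1 or asparaginase replicate 2 did not keep either. The mean local background was higher with asparaginase at both regions in both lines, and its part in the difference was not tested.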

How the results depend on the processing

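A missing peak limits all counts of presence, because a list's lower end depends on its depth. Values are given as log2 differences or counts of chromosome 19 regions, and the cause of a change was not tested. The difference between the lines in the change of share turned to 0.0736 with −log10 q of at least 5, to 0.0935 at 10 and to 0.443 with equally long lists, and leaving out 1 library gave -0.282 to 0.0967, the last without SUPB15 untreated replicate 1. Equally long lists also turned the number of peaks in Nalm6 to -0.175, the share in SUPB15 to 0.267 and the share over both lines to 0.0459. The strongest 5000 peaks of each list, added after seeing the data, gave 0.304 in SUPB15 and 0.643 for the difference between the lines.

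Requiring −log10 q of at least 5 left 296 gained and 97 constant regions in SUPB15. At 10 there were 660 constant in Nalm6, 157 gained, 68 constant and 0 untreated-only in SUPB15, 30 gained in both lines, and 61 regions in the fullest bin, and the median fold over that of the other autosomes was 1 in Nalm6 and 0.922 in SUPB15. With equally long lists SUPB15 had 108 gained and 35 untreated-only regions, and Nalm6 had 115 gained and 149 untreated-only. In that setting 25 regions were gained in both lines at once. Joining summits within 200 bp gave 83 untreated-only in Nalm6. Leaving out 1 library gave 212 to 387 gained and 76 to 170 untreated-only in Nalm6, and in SUPB15 499 to 1538 gained, 148 to 232 constant and 2 to 18 untreated-only; 57 to 86 were gained in both lines at once.

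For summit pileups in limma, no centring gave 395 higher and 6 lower in Nalm6 and 76 and 0 in SUPB15. The deposited fold enrichment gave 119 and 69 in Nalm6, 20 and 22 in SUPB15, and 0 lower in the difference between the lines. With −log10 q of at least 10 in every list there were 147 higher and 56 lower in Nalm6, 2 and 27 in SUPB15, and 1 lower in the difference. Over the genome that setting gave 3618 and 1109 in Nalm6, 56 and 515 in SUPB15, and 9 and 42 in the difference. Leaving out 1 library gave 124 to 204 higher and 29 to 121 lower in Nalm6, 0 to 45 and 0 to 7 in SUPB15, and 0 to 1 higher and 0 to 3 lower in the difference, where a lone library is assumed to vary like the others. Over all settings that could give a value, named changes kept their direction and call 74 times in Nalm6, 34 times in SUPB15 and 13 times in the difference, and kept the direction but lost the call 1, 28 and 11 times.

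The replicate numbers are shared by the groups. Replicate differences of untreated and asparaginase libraries were nearly uncorrelated across regions, which does not settle whether same-numbered libraries were paired. With the replicate block the share changed by -0.225 in Nalm6 (exact permutation p = 0.5, n = 2 pairs), and limma gave 234 higher and 223 lower in Nalm6, 57 and 21 in SUPB15, and 2 and 3 in the difference between the lines. Over the genome limma with this block gave 6394 and 3610 in Nalm6, 1648 and 697 in SUPB15, and 52 and 359 in the difference.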
